A study of Mus musculus with 12 samples.

Results

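The genes described here are 45 genes of the lysosome and of the TFEB network, picked by symbol from a fixed list of lysosomal enzymes, lysosomal membrane proteins, V-ATPase subunits and the transcription factors Tfeb and Tfe3. All 45 were found among the 14851 genes of the deposited tables, and all 45 passed the filter on low values in every comparison. They were measured by RNA-sequencing in 562 cells, a spontaneously immortalized mouse vascular tumor line, with 3 control libraries and 3 from each kind of KO cell (Fip200 KO, Atg5 KO and Atg7 KO), 12 in all. The line was grown from a cutaneous tumor of a Tsc1 f/f;Scl-Cre mouse given tamoxifen, so that control and KO cells alike lack Tsc1, deleted by a Cre made in endothelial cells. The labels give the strain as C57BL/6, the tissue as lymphatic endothelial cells and the genotype of control as wildtype. Per the study's methods, control cells carried an sgRNA against EGFP and KO cells an sgRNA against the named gene, brought in by a lentiviral Cas9 vector and selected with puromycin. The study describes 2 Fip200 KO clones and lists 2 sgRNAs for Fip200, and the labels do not say which clone or sgRNA gave which library. Every group comes from the 1 tumor line, and the study calls the replicates of a group independent, while the labels do not say whether they were separate cultures, so p-values measure the spread between these libraries, part of which may be technical.

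Lysosomes are acidic compartments in which hydrolases break down proteins, sugar chains, lipids and nucleic acids that arrive by endocytosis or autophagy. The V-ATPase pumps protons into them, LAMP proteins line their membrane, and NPC1 and NPC2 carry cholesterol out. TFEB and TFE3 are related transcription factors that bind E-box motifs in the promoters of many lysosomal genes. Active mTORC1 keeps them in the cytoplasm by phosphorylation, and loss of Tsc1 raises mTORC1 activity. FIP200, made from Rb1cc1, is a subunit of the complex that starts autophagosomes, while ATG7 and ATG5 attach LC3 to their membranes. Autophagosomes end by fusing with lysosomes. The comparison of each KO with control asks which RNAs of 562 cells differ once autophagy is blocked.

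In the 3 KO cells most of these genes lay below control. With an adjusted p of at most 0.1, 3 of 45 were lower after Fip200 KO, 21 after Atg5 KO and 24 after Atg7 KO, against 1.69%, 18.7% and 13.7% of all tested genes. Higher was 1 gene, the aminopeptidase gene Ctsh in Atg5 KO cells. In 1 fit of all 12 libraries 11, 12 and 19 of the 45 passed this threshold. Of all tested genes 1190 of 11803, 2320 of 11833 and 2455 of 11784 passed there. Once the prefix of the library names was added to that fit, 0, 4 and 0 passed, against 0.381%, 6.39% and 0.305%. The lysosomal membrane gene Lamp1, the alpha-mannosidase gene Man2b1 and the cholesterol carrier gene Npc2 passed in all 3. In Fip200 KO cells each of these calls was lost with the replicate block, with the prefix, and without control replicate 2, control replicate 3 or Fip200 KO replicate 2. Lamp1 fell to 40.7%, 53.3% and 41.2% of its control mean in the Fip200, Atg5 and Atg7 knockouts. The core subunits of the V-ATPase passed the test in no comparison. In bulk RNA, fewer cells of a kind and less RNA per cell cannot be told apart.

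Between 17264989 and 23627944 reads per library fell on the listed genes. Levels are RPKM, reads scaled to the length of the gene and to the total reads of the library, and each mean ± SD is over the 3 libraries of a group. The RNA of the targeted gene was lower with an adjusted p of at most 0.1 only for Atg7 in Atg7 KO cells (log2 fold change -1.97, adjusted p = 0.0216), while Rb1cc1 in Fip200 KO cells (-0.74, adjusted p = 0.404) and Atg5 in Atg5 KO cells (0.0029, adjusted p = 0.994) did not pass. A CRISPR deletion need not lower the RNA, and the deleted bases were not analysed here. The 11 endothelial markers summed to 1216 to 3138 RPKM in every library, while of the lymphatic markers Prox1 stood at 0.0366 to 5.79 RPKM and Flt4, Lyve1 and Pdpn at 31.7 to 393 RPKM. Among the macrophage markers Ptprc, Adgre1 and Csf1r were at most 0.179 RPKM in every library, whereas Cd14 and Lyz2 carried the sum of that list, which was 39.2 to 99.5 RPKM in control and 4.52 to 22.4 in the KO libraries, so that this sum is lower in KO cells as the lysosomal genes are. Its part in the results was not tested. The fibroblast and mural list summed to 70.7 RPKM in control replicate 2, with Dcn at 56.9, and to 1.13 to 20.7 in the other control libraries. Control replicate 2 also had the lowest endothelial sum, and Fip200 KO replicate 1 stood apart from the other Fip200 KO libraries in the lysosomal genes, as given with the libraries further on.

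The E-box that TFEB and TFE3 bind, CACGTG, was searched on both strands in promoter windows from RefSeq (build GRCm38.p6, 250 bases before to 50 after the gene start). Of the 45 genes, 37 had a window, and Npc1, Ctsb, Ctsh, Galns, Asah1, Atp6v1b2, Atp6v1c1 and Atp6v1h had none. CACGTG was found for 12 of the 37 genes, or 32.4%, against 8.09% of all 27025 genes with a window. The longer forms TCACGTG or CACGTGA, which read the same site from either strand and each hold CACGTG, were found for 11 of 37 genes (29.7%) and 4.29% of all genes. The 6 genes with a longer form and the smallest p in any KO comparison are shown so that the site can be seen beside their values. Each stretch runs 5′ to 3′ on the strand of its gene and ends before the gene start, with CACGTG in capitals.
Ctsa: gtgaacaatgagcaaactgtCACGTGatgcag
Lamp1: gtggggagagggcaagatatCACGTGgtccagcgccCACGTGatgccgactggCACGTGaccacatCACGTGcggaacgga
Gla: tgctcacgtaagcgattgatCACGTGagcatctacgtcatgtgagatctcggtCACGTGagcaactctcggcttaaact
Naglu: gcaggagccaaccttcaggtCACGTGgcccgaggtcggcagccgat
Ctsd: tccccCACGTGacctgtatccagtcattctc
Lgmn: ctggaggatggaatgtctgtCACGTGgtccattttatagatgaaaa

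The Lamp1 stretch (chr8:13159080-13159160, plus strand) holds 4 copies within 81 bases. The Gla stretch (chrX:134601174-134601252, minus strand) holds 2. The Ctsa (chr2:164833741-164833772, plus strand), Naglu (chr11:101070001-101070046, plus strand), Ctsd (chr7:142388047-142388077, minus strand) and Lgmn (chr12:102439116-102439161, minus strand) stretches hold 1 each, and the Ctsa and Ctsd windows each hold another copy outside the stretch shown. Mcoln1, Glb1, Sgsh, Atp6v0d1 and Atp6v1a also had a longer form. The median log2 fold change of the 11 genes with a longer form was -0.27, -0.30 and -0.66 in the Fip200, Atg5 and Atg7 knockouts, beside -0.52, -0.42 and -0.59 for the 26 genes whose window lacks it. Lower with an adjusted p of at most 0.1 were 1, 5 and 7 of the 11, and 2, 13 and 14 of the 26, beside 1.69%, 18.7% and 13.7% of all tested genes. Man2b1, Npc2 and Tfeb, which were among the genes furthest below control, have no longer form in their windows. A match describes these letters and shows no binding.

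**Figure D1:**
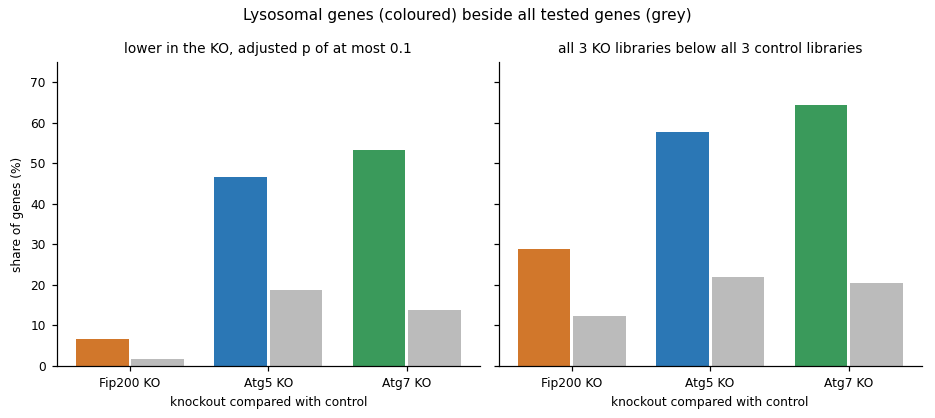
Share of genes in percent (y axis) for each KO compared with control (x axis), with the 45 lysosomal genes in colour and all tested genes in grey. The left panel counts genes lower in the KO with an adjusted p of at most 0.1, where the coloured bars stand at 6.67%, 46.7% and 53.3%, and the right panel counts genes whose 3 KO libraries all lie below the 3 control libraries, at 28.9%, 57.8% and 64.4%.

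Each KO was compared with the same 3 control libraries, so the comparisons are not independent of each other. The share of lower genes was read against all tested genes. In Fip200 KO cells 3 of 45 (6.67%) were lower with an adjusted p of at most 0.1, against 1.69% of 11803 genes, and 0 were higher against 0.356%. In Atg5 KO cells 21 (46.7%) were lower against 18.7% of 11833 genes, and 1 (2.22%) was higher against 22.9%. In Atg7 KO cells 24 (53.3%) were lower against 13.7% of 11784 genes, and 0 were higher against 11.3%. At an unadjusted p under 0.05 in either direction, limma gave 12 (26.7%), 23 (51.1%) and 29 (64.4%) of the 45 in the Fip200, Atg5 and Atg7 knockouts, against 16.1%, 43.8% and 33.7% of all tested genes. The Atg5 KO share was close to that of all genes. Where the adjusted p was at most 0.1 and the log2 fold change at most -1, 3, 5 and 12 genes were lower, against 1.64%, 6.94% and 6.81% of all tested genes. Man2b1 was the 1 gene that met this in all 3 KO cells.

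The raw levels show the same order of shares. All 3 KO libraries lay below all 3 control libraries for 13 of 45 genes after Fip200 KO, 26 after Atg5 KO and 29 after Atg7 KO, where 12.4%, 22.0% and 20.4% of all tested genes did so. They lay above all control libraries for 2, 1 and 0 genes, against 11.7%, 28.4% and 19.2%. For 11 genes (Tfe3, Lamp1, Lamp2, Mcoln1, Ctsb, Ctsl, Man2b1, Asah1, Smpd1, Npc2 and Atp6ap2) all 9 KO libraries lay below every control library, which is 24.4% of the 45 against 7.67% of the 11608 genes tested in all 3 comparisons. For 9 genes, Npc1, Ctsz, Ctsh, Glb1, Neu1, Ppt1, Atp6v0d1, Atp6v1c1 and Atp6v1e1, the groups overlapped in all 3 comparisons (against 36.5% of those genes). The median log2 fold change of the 45 genes was -0.31, -0.38 and -0.57 in the Fip200, Atg5 and Atg7 knockouts, where that of all tested genes was 0.016, 0.055 and -0.008. Below 0 were 35, 37 and 43 of the 45.

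**Figure D2:**
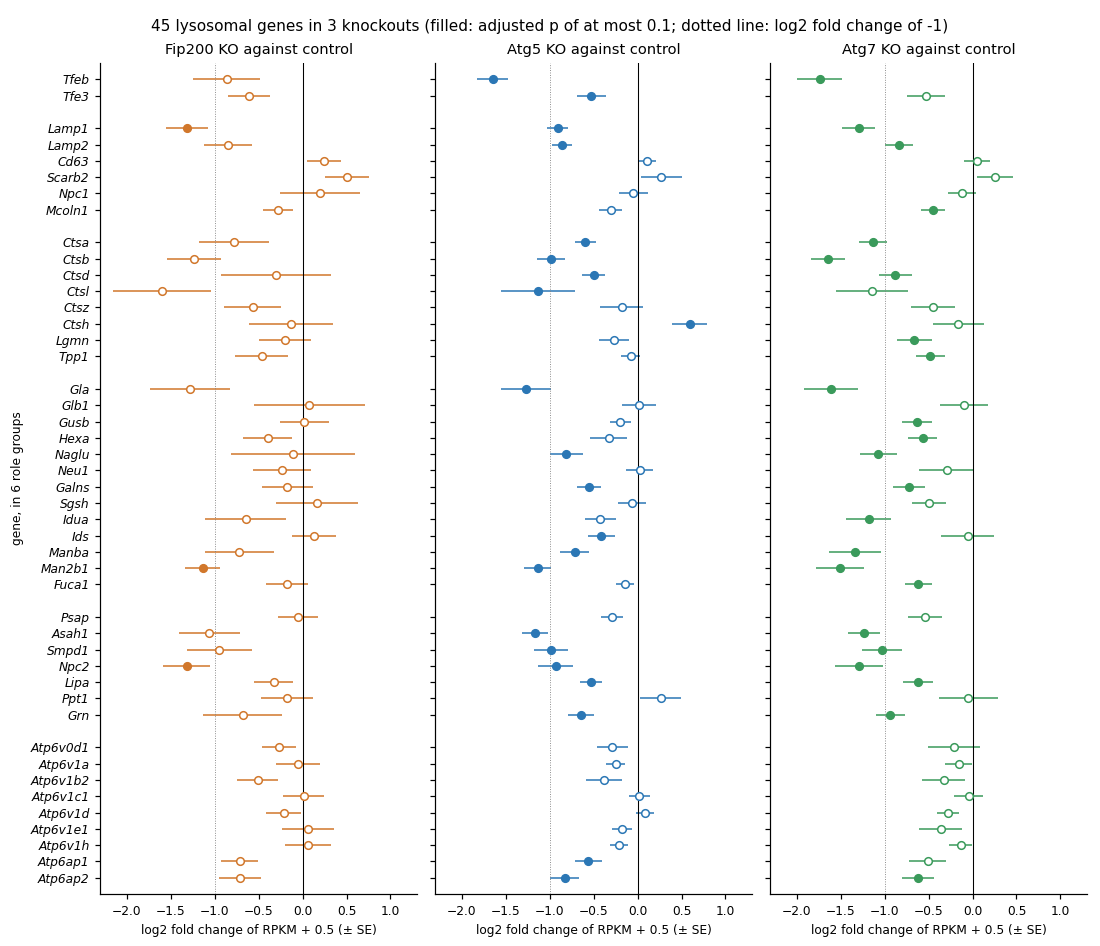
Log2 fold change of log2(RPKM + 0.5) with its SE (x axis) for each of the 45 genes (y axis, in 6 role groups) in the 3 KO cells against control, where filled points passed an adjusted p of at most 0.1 and the dotted line marks -1. The 16 genes open in all 3 panels include the 7 core V-ATPase subunits, Cd63 and Scarb2.

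Both transcription factors had lower means in all 3 KO cells than in control. Tfeb, the factor the network is named for, was at 5.12, 4.77 and 6.10 RPKM in control, 5.23, 2.01 and 1.76 after Fip200 KO, 1.10, 1.41 and 1.57 after Atg5 KO and 0.946, 1.00 and 1.92 after Atg7 KO. The Atg5 KO and Atg7 KO libraries all lay below control, while Fip200 KO replicate 1 lay within the control range and the other Fip200 KO libraries below it. The log2 fold change of Tfeb was -0.86 ± 0.38 (SE, adjusted p = 0.328) after Fip200 KO, -1.65 ± 0.17 (adjusted p = 0.00372) after Atg5 KO and -1.74 ± 0.26 (adjusted p = 0.0127) after Atg7 KO. Tfe3, a related factor that binds the same motif, was at 11.5, 16.8 and 14.4 RPKM in control, 11.2, 8.48 and 7.74 after Fip200 KO, 9.63, 10.6 and 8.68 after Atg5 KO and 7.76, 9.80 and 11.5 after Atg7 KO. No KO library reached the lowest control library, although Atg7 KO replicate 3 nearly did. For Tfe3 the log2 fold change was -0.61 ± 0.24 (SE, adjusted p = 0.283) after Fip200 KO, -0.53 ± 0.17 (adjusted p = 0.0533) after Atg5 KO and -0.53 ± 0.21 (adjusted p = 0.131) after Atg7 KO. The Tfe3 call in Atg5 KO cells was lost in 6 of 14 alternatives. Tfeb was among the 3 genes with the lowest control mean (5.33 ± 0.691 RPKM, SD, n = 3), and its libraries held 50 to 369 reads.

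Of the 6 membrane proteins, 1 (16.7%), 2 (33.3%) and 3 (50.0%) were lower with an adjusted p of at most 0.1 in the Fip200, Atg5 and Atg7 knockouts, against 1.69%, 18.7% and 13.7% of all tested genes, and 0 were higher. Lamp1, the main glycoprotein of the lysosomal membrane, was at 935, 1003 and 1076 RPKM in control, 321, 485 and 422 after Fip200 KO, 556, 574 and 476 after Atg5 KO and 329, 484 and 428 after Atg7 KO. The 9 KO libraries held at most 574 RPKM and the control libraries at least 935. Its log2 fold change was -1.31 ± 0.24 (SE, adjusted p = 0.0688) after Fip200 KO, -0.91 ± 0.12 (adjusted p = 0.00579) after Atg5 KO and -1.29 ± 0.19 (adjusted p = 0.0121) after Atg7 KO. Lamp2, its paralog that also serves the uptake of proteins and the fusion with autophagosomes, stood at 104, 129 and 125 RPKM in control, 86.4, 72.7 and 45.1 after Fip200 KO, 63.9, 68.5 and 63.9 after Atg5 KO and 63.5, 61.1 and 75.1 after Atg7 KO. Every KO library lay below the control libraries, and Fip200 KO replicate 3 lay lowest. Lamp2 had a log2 fold change of -0.85 ± 0.27 (SE, adjusted p = 0.201) after Fip200 KO, -0.86 ± 0.12 (adjusted p = 0.00579) after Atg5 KO and -0.84 ± 0.16 (adjusted p = 0.0216) after Atg7 KO.

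The other membrane genes differed less from control. Mcoln1, which encodes a calcium channel of the lysosome, had a log2 fold change of -0.28 ± 0.17 (adjusted p = 0.446) after Fip200 KO, -0.30 ± 0.13 (adjusted p = 0.117) after Atg5 KO and -0.45 ± 0.14 (adjusted p = 0.074) after Atg7 KO. Cd63, a tetraspanin of late endosomes and exosomes, and Scarb2, the receptor that carries glucocerebrosidase to lysosomes, did not pass in any comparison, with log2 fold changes of 0.24, 0.10 and 0.05 for Cd63 and 0.51, 0.27 and 0.25 for Scarb2. For both, the 3 Fip200 KO libraries lay above all control libraries. Npc1, which passes cholesterol on from Npc2, did not pass either, with 0.20, -0.05 and -0.12. The carrier pair had different calls, Npc2 being lower in all 3 KO cells with an adjusted p of at most 0.1 and Npc1 overlapping control in each. The difference between these genes was not tested.

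**Figure D3:**
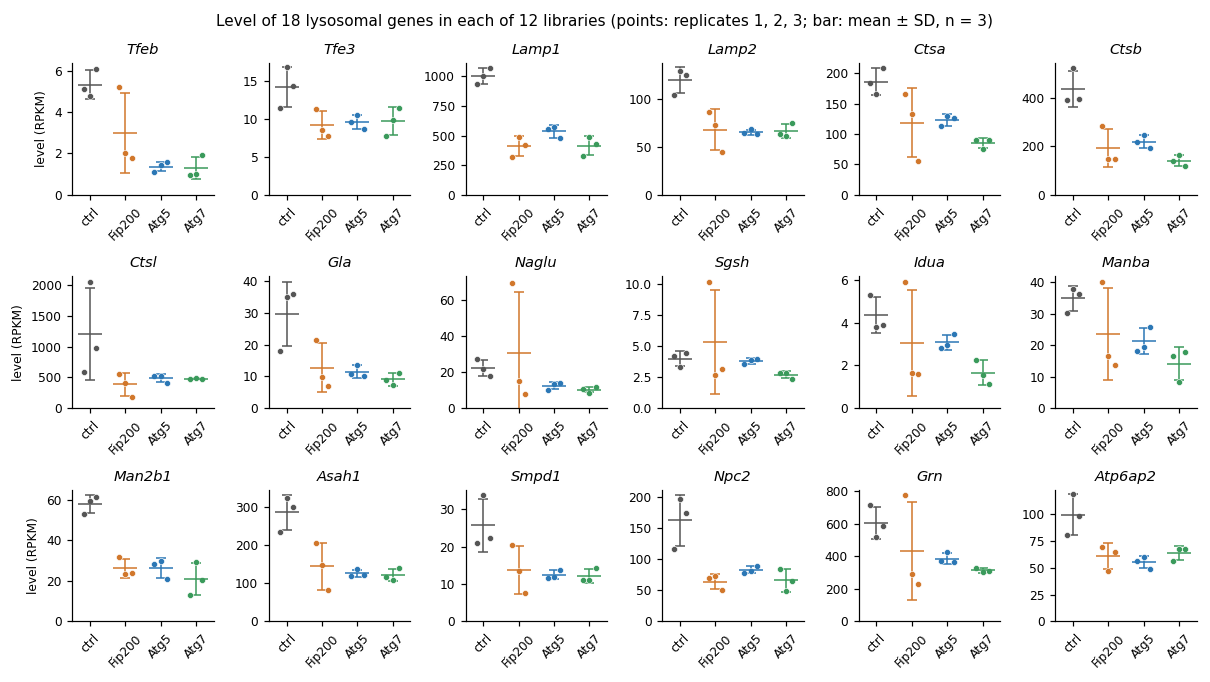
Level in RPKM (y axis of each panel, from 0) of 18 genes in control cells and the 3 kinds of KO cell (x axis), with 1 point per library in the order of replicates 1, 2 and 3 and the mean ± SD (n = 3) as bars, the lower bar of Naglu in Fip200 KO cells being cut at 0. Fip200 KO replicate 1 is the highest Fip200 KO point for Tfeb, Naglu, Sgsh, Idua, Manba and Grn, and the Lamp1 points of all KO cells lie at 574 RPKM or lower.

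Of the 8 proteases, 0 were lower with an adjusted p of at most 0.1 after Fip200 KO, 4 (50.0%) after Atg5 KO and 5 (62.5%) after Atg7 KO, against 1.69%, 18.7% and 13.7% of all tested genes. After Atg5 KO 1 (12.5%, against 22.9%) was higher. Ctsb, the cysteine protease cathepsin B, was at 392, 524 and 396 RPKM in control, 284, 149 and 146 after Fip200 KO, 220.0, 246 and 193 after Atg5 KO and 138, 163 and 117 after Atg7 KO. All 9 KO libraries lay below control. Against control the log2 fold change was -1.24 ± 0.31 (SE, adjusted p = 0.139) after Fip200 KO, -0.99 ± 0.16 (adjusted p = 0.00798) after Atg5 KO and -1.64 ± 0.19 (adjusted p = 0.00809) after Atg7 KO. Ctsa, the carboxypeptidase that also shields beta-galactosidase and neuraminidase in a complex, was at 184, 166 and 209 RPKM in control, 166, 134 and 55.9 after Fip200 KO, 112, 130.2 and 127 after Atg5 KO and 89.3, 74.8 and 90.1 after Atg7 KO. Fip200 KO replicate 1 overlapped control by a small margin, and the Atg5 KO and Atg7 KO libraries did not. Ctsa had a log2 fold change of -0.78 ± 0.40 (SE, adjusted p = 0.377) after Fip200 KO, -0.59 ± 0.12 (adjusted p = 0.016) after Atg5 KO and -1.13 ± 0.16 (adjusted p = 0.0112) after Atg7 KO.

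Ctsl, the cysteine protease cathepsin L, had the highest control mean of the 45 genes, 1204 ± 755 RPKM (SD, n = 3), and was at 586, 2046 and 981 RPKM in control, 549, 415 and 186 after Fip200 KO, 516, 527 and 410.4 after Atg5 KO and 471, 490.0 and 472 after Atg7 KO. Control replicate 2, in which Dcn stood at 56.9 RPKM, held the most. All 9 KO libraries lay below the lowest control library. In log2 fold change this was -1.60 ± 0.55 (SE, adjusted p = 0.23) after Fip200 KO, -1.13 ± 0.42 (adjusted p = 0.0819) after Atg5 KO and -1.14 ± 0.41 (adjusted p = 0.103) after Atg7 KO. The Ctsl call in Atg5 KO cells was lost in 8 of 14 alternatives. Among them was leaving out control replicate 2, where its log2 fold change was -0.66 ± 0.24 (adjusted p = 0.103). Ctsd, the aspartic protease cathepsin D, had a log2 fold change of -0.50 ± 0.13 (adjusted p = 0.029) after Atg5 KO and -0.88 ± 0.19 (adjusted p = 0.028) after Atg7 KO, and its Fip200 KO libraries ran from 187 to 1211 RPKM. Lgmn, the asparaginyl endopeptidase legumain, and Tpp1, a tripeptidyl peptidase, were lower in Atg7 KO cells by log2 fold changes of -0.66 ± 0.20 (adjusted p = 0.0662) and -0.48 ± 0.17 (adjusted p = 0.0943) and passed in neither of the other KO cells. Ctsh, an aminopeptidase, was above control in Atg5 KO cells by a log2 fold change of 0.59 ± 0.20 (adjusted p = 0.0622), and this call was lost in 6 of 14 alternatives, among them leaving out control replicate 2 or 3 or Atg5 KO replicate 1 or 2. In addition, Atg5 KO replicate 3 (83.5 RPKM) lay below control replicate 1 (84.6 RPKM). Ctsz, a carboxypeptidase, passed in none.

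Among the 13 enzymes that cut sugar chains, 1 (7.69%), 6 (46.2%) and 9 (69.2%) were lower with an adjusted p of at most 0.1 in the Fip200, Atg5 and Atg7 knockouts, where 1.69%, 18.7% and 13.7% of all tested genes were, and 0 were higher. Man2b1, the lysosomal alpha-mannosidase, was at 53.1, 59.3 and 61.6 RPKM in control, 31.6, 23.4 and 23.8 after Fip200 KO, 28.2, 30.0 and 21.0 after Atg5 KO and 13.3, 29.2 and 20.6 after Atg7 KO. The KO libraries held at most 31.6 RPKM and the control libraries at least 53.1. Man2b1 had a log2 fold change of -1.14 ± 0.20 (SE, adjusted p = 0.0652) after Fip200 KO, -1.14 ± 0.16 (adjusted p = 0.0059) after Atg5 KO and -1.51 ± 0.27 (adjusted p = 0.0206) after Atg7 KO. Manba, the beta-mannosidase that takes the last mannose of the chain, stood at 30.3, 38.03 and 36.3 RPKM in control, 40.3, 16.6 and 13.6 after Fip200 KO, 18.1, 19.6 and 25.9 after Atg5 KO and 16.4, 8.22 and 17.9 after Atg7 KO. Fip200 KO replicate 1 was the highest of the 12 libraries, and the Atg5 KO and Atg7 KO libraries all lay below control. Manba had a log2 fold change of -0.72 ± 0.39 (SE, adjusted p = 0.408) after Fip200 KO, -0.72 ± 0.17 (adjusted p = 0.0218) after Atg5 KO and -1.34 ± 0.29 (adjusted p = 0.0303) after Atg7 KO. Gla, the alpha-galactosidase that is deficient in Fabry disease, was at 17.9, 35.0 and 36.0 RPKM in control, 21.4, 9.78 and 6.90 after Fip200 KO, 10.7, 13.8 and 10.2 after Atg5 KO and 8.84, 7.16 and 11.2 after Atg7 KO. Fip200 KO replicate 1 lay above control replicate 1, while the Atg5 KO and Atg7 KO libraries were lower than both. Gla had a log2 fold change of -1.28 ± 0.45 (SE, adjusted p = 0.238) after Fip200 KO, -1.27 ± 0.28 (adjusted p = 0.0191) after Atg5 KO and -1.61 ± 0.30 (adjusted p = 0.022) after Atg7 KO.

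Several of these enzymes take apart heparan sulfate and related chains. Naglu, an alpha-N-acetylglucosaminidase, was at 27.0, 21.9 and 17.8 RPKM in control, 69.3, 14.9 and 7.82 after Fip200 KO, 10.1, 13.2 and 13.9 after Atg5 KO and 10.5, 8.52 and 11.7 after Atg7 KO. Fip200 KO replicate 1 held more than any other library and the other Fip200 KO libraries less than any control library. For Naglu the log2 fold change was -0.11 ± 0.71 (SE, adjusted p = 0.951) after Fip200 KO, -0.81 ± 0.19 (adjusted p = 0.023) after Atg5 KO and -1.07 ± 0.21 (adjusted p = 0.0236) after Atg7 KO. Idua, the alpha-L-iduronidase, was at 5.32, 3.81 and 3.90 RPKM in control, 5.90, 1.63 and 1.60 after Fip200 KO, 2.81, 2.96 and 3.49 after Atg5 KO and 2.27, 1.57 and 1.14 after Atg7 KO. Here too Fip200 KO replicate 1 lay above every control library and replicates 2 and 3 below. Idua had a log2 fold change of -0.65 ± 0.46 (SE, adjusted p = 0.506) after Fip200 KO, -0.42 ± 0.18 (adjusted p = 0.109) after Atg5 KO and -1.18 ± 0.26 (adjusted p = 0.0295) after Atg7 KO. Sgsh, the sulfamidase, had the lowest control mean of the 45 genes, 4.0 ± 0.62 RPKM (SD, n = 3), and was at 4.23, 3.30 and 4.47 RPKM in control, 10.2, 2.69 and 3.17 after Fip200 KO, 3.53, 3.88 and 3.96 after Atg5 KO and 2.85, 2.83 and 2.37 after Atg7 KO. Its log2 fold change was 0.16 ± 0.47 (SE, adjusted p = 0.888) after Fip200 KO, -0.06 ± 0.16 (adjusted p = 0.79) after Atg5 KO and -0.49 ± 0.19 (adjusted p = 0.125) after Atg7 KO, so that it passed in none, although the 3 Atg7 KO libraries lay below control. Ids, the iduronate sulfatase, was lower in Atg5 KO cells by -0.41 ± 0.15 (adjusted p = 0.0795), and its Atg7 KO libraries ran from 3.16 to 7.51 RPKM. Galns, a sulfatase of keratan and chondroitin sulfate, had log2 fold changes of -0.55 ± 0.14 (adjusted p = 0.0263) after Atg5 KO and -0.72 ± 0.19 (adjusted p = 0.0467) after Atg7 KO.

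Gusb, Hexa and Fuca1, the beta-glucuronidase, the alpha subunit of beta-hexosaminidase and the alpha-fucosidase, were lower in Atg7 KO cells by -0.63 ± 0.17 (adjusted p = 0.0514), -0.57 ± 0.17 (adjusted p = 0.0639) and -0.62 ± 0.15 (adjusted p = 0.0413). Glb1, the beta-galactosidase, and Neu1, the sialidase, passed in no comparison. Their log2 fold changes were 0.08, 0.02 and -0.10 for Glb1 and -0.24, 0.02 and -0.29 for Neu1. Glb1 and Neu1 act in a complex with cathepsin A, whose gene was lower after Atg5 KO and after Atg7 KO.

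Of the 7 genes of lipid breakdown and transport and progranulin, 1 (14.3%), 5 (71.4%) and 5 (71.4%) were lower with an adjusted p of at most 0.1, against the same 1.69%, 18.7% and 13.7%, and 0 were higher. Asah1, the acid ceramidase, was at 233, 323 and 300 RPKM in control, 204, 149 and 81.3 after Fip200 KO, 120.04, 136 and 122 after Atg5 KO and 115, 108 and 139 after Atg7 KO. All KO libraries lay below the control libraries. Asah1 had a log2 fold change of -1.06 ± 0.35 (SE, adjusted p = 0.211) after Fip200 KO, -1.16 ± 0.15 (adjusted p = 0.00487) after Atg5 KO and -1.23 ± 0.18 (adjusted p = 0.0127) after Atg7 KO. Smpd1, the acid sphingomyelinase, which makes the ceramide that Asah1 cuts, was at 20.9, 33.9 and 22.4 RPKM in control, 20.3, 13.4 and 7.67 after Fip200 KO, 11.7, 11.9 and 13.8 after Atg5 KO and 11.1, 11.02 and 14.3 after Atg7 KO. Its highest KO library, Fip200 KO replicate 1, came close to the lowest control library without reaching it. Smpd1 had a log2 fold change of -0.95 ± 0.37 (SE, adjusted p = 0.28) after Fip200 KO, -0.99 ± 0.20 (adjusted p = 0.0142) after Atg5 KO and -1.03 ± 0.22 (adjusted p = 0.0297) after Atg7 KO. Npc2, the soluble cholesterol carrier, was at 117, 197 and 175 RPKM in control, 69.8, 73.2 and 49.9 after Fip200 KO, 78.1, 82.0 and 90.0 after Atg5 KO and 84.8, 48.2 and 65.9 after Atg7 KO. Every KO library held at most 90.0 RPKM, and control replicate 1 was the lowest control library at 117. Npc2 had a log2 fold change of -1.32 ± 0.26 (SE, adjusted p = 0.0887) after Fip200 KO, -0.93 ± 0.20 (adjusted p = 0.0168) after Atg5 KO and -1.29 ± 0.27 (adjusted p = 0.0274) after Atg7 KO.

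Grn encodes progranulin, a precursor of granulins that also reaches the lysosome, and had the third highest control mean, 605 ± 97.9 RPKM (SD, n = 3). It was at 712, 519.5 and 584 RPKM in control, 775, 291 and 231 after Fip200 KO, 369, 423 and 365 after Atg5 KO and 329.9, 301 and 309 after Atg7 KO. Fip200 KO replicate 1 lay above every control library, and the other KO libraries lay below. On the log2 scale Grn differed from control by -0.68 ± 0.45 (SE, adjusted p = 0.476) after Fip200 KO, -0.64 ± 0.15 (adjusted p = 0.0207) after Atg5 KO and -0.94 ± 0.17 (adjusted p = 0.0196) after Atg7 KO. Lipa, the acid lipase, had log2 fold changes of -0.53 ± 0.12 (adjusted p = 0.0212) after Atg5 KO and -0.62 ± 0.17 (adjusted p = 0.0524) after Atg7 KO. Psap, the precursor of the saposins that help lipid hydrolases, did not pass, although its Atg5 KO and Atg7 KO libraries all lay below control, with log2 fold changes of -0.29 ± 0.12 (adjusted p = 0.12) and -0.54 ± 0.20 (adjusted p = 0.105). Ppt1, a palmitoyl-protein thioesterase, overlapped control in all 3 KO cells.

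Of the 9 V-ATPase genes, 0, 2 (22.2%) and 1 (11.1%) were lower with an adjusted p of at most 0.1, near the 1.69%, 18.7% and 13.7% of all tested genes, and those that passed encode accessory proteins. Atp6ap2, an accessory protein also known as the prorenin receptor, was at 80.4, 119 and 98.3 RPKM in control, 69.6, 46.9 and 64.8 after Fip200 KO, 56.5, 59.9 and 48.7 after Atg5 KO and 55.9, 67.1 and 67.6 after Atg7 KO. All 9 KO libraries lay below control. Against control the log2 fold change was -0.71 ± 0.24 (SE, adjusted p = 0.217) after Fip200 KO, -0.83 ± 0.16 (adjusted p = 0.0139) after Atg5 KO and -0.62 ± 0.18 (adjusted p = 0.0625) after Atg7 KO. Atp6ap1, the other accessory protein, had a log2 fold change of -0.72 ± 0.21 (adjusted p = 0.172) after Fip200 KO, -0.56 ± 0.16 (adjusted p = 0.0372) after Atg5 KO and -0.51 ± 0.21 (adjusted p = 0.136) after Atg7 KO. The 7 core subunits, Atp6v1a, Atp6v1b2, Atp6v1c1, Atp6v1d, Atp6v1e1 and Atp6v1h of the cytosolic part and Atp6v0d1 of the membrane part, had log2 fold changes between -0.51 and 0.088 over the 3 comparisons and passed in none. The median log2 fold change of the 9 genes was -0.22, -0.25 and -0.28, and whether it differs from that of the enzymes was not tested.

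**Figure D4:**
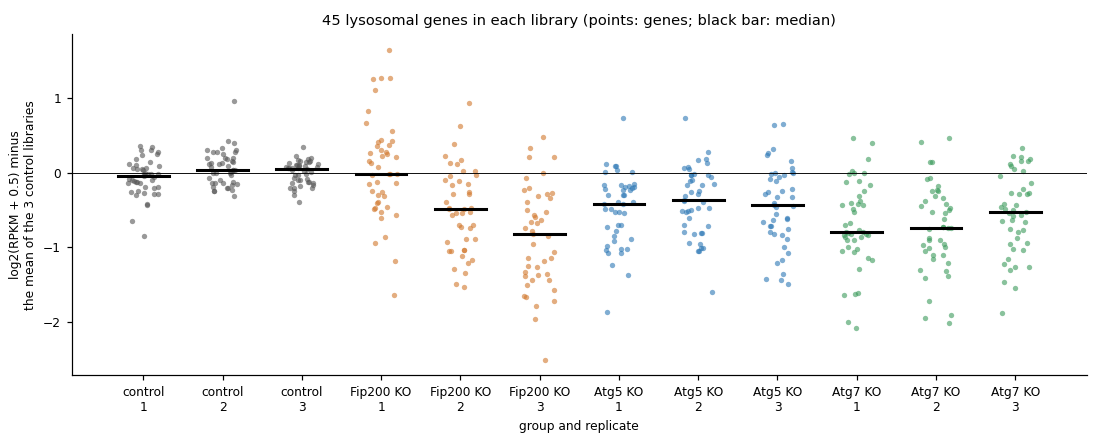
Difference of log2(RPKM + 0.5) from the mean of the 3 control libraries (y axis) for each of the 45 genes (points) in each library (x axis), with the median as a black bar. The median is -0.015 in Fip200 KO replicate 1 and between -0.82 and -0.36 in the other 8 KO libraries.

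The Fip200 KO libraries were the most spread. The median difference of the 45 genes from the control mean was -0.015 in replicate 1, -0.49 in replicate 2 and -0.82 in replicate 3 on the log2 scale. Replicate 1 held the highest Fip200 KO level for 37 of the 45 genes (82.2%), where it did so for 35.3% of all tested genes, and replicate 3 the lowest for 34 (75.6%, against 36.2%). Above every control library lay 19 of the 45 genes in replicate 1 (42.2%, near the 36.0% of all tested genes), with Ctsd at 1211 RPKM against 544 in the highest control library, Naglu at 69.3 against 27.0, Npc1 at 39.7 against 17.999 and Glb1 at 82.3 against 48.5. Below every control library lay 14 genes in replicate 1 (31.1%, near the 33.8% of all tested genes), 30 in replicate 2 (66.7%, against 35.6%) and 39 in replicate 3 (86.7%, against 37.5%). Lamp1 was the lowest of the 3 in replicate 1, at 321 RPKM. Without Fip200 KO replicate 1, 42 of 45 genes lay below 0 with a median log2 fold change of -0.56, without replicate 2 it was 33 with -0.34, and without replicate 3 it was 29 with -0.20. Tfeb stood at 5.23 RPKM in replicate 1, and the RNA of Atg7 at 38.3 RPKM, above the 18.4 to 25.0 of control.

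The Atg5 KO and Atg7 KO libraries were closer to each other within their groups. Medians of the 45 genes were -0.42, -0.36 and -0.44 after Atg5 KO and -0.79, -0.74 and -0.53 after Atg7 KO. Between 30 and 33 genes (66.7% to 73.3%) lay below every control library in each Atg5 KO library, against 31.4% to 32.8% of all tested genes. In each Atg7 KO library between 33 and 37 (73.3% to 82.2%) did so, against 34.2% to 40.2%. In Fip200 KO cells the count of 3 rested on single libraries, as it was 0 without control replicate 2, without control replicate 3 or without Fip200 KO replicate 2, and 1 without control replicate 1. In Atg7 KO cells the count of 24 became 14 without control replicate 3, 15 without Atg7 KO replicate 1 and 16 without control replicate 2.

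The library names in the labels begin with 1 of 3 prefixes, and these go with the groups. Control replicate 1 and all Fip200 KO libraries begin with FY, control replicates 2 and 3 and Atg5 KO replicates 1 and 2 with JG, and Atg5 KO replicate 3 and all Atg7 KO libraries with Yang. Within FY, 37 of 45 genes lay below 0 in Fip200 KO cells with a median log2 difference of -0.38, beside 48.1% and a median of 0.022 for all tested genes. For 18 of the 45 genes all 3 KO libraries lay below the 1 control library, a larger share than the 21.0% of all tested genes. Within JG, 38 of 45 lay below 0 in Atg5 KO cells with a median of -0.39, beside 46.1% and a median of 0.055 for all tested genes. In this prefix 33 of the 45 were lower with no overlap, again a larger share than the 33.5% of all tested genes. No control library begins with Yang, so that for Atg7 KO cells the prefix and the KO cannot be told apart within a prefix. The fit of all 12 libraries was run with and without the prefix as a term, at an adjusted p of at most 0.1. Without it 11, 12 and 19 of the 45 genes passed in the Fip200, Atg5 and Atg7 knockouts. Of all tested genes 1190 of 11803, 2320 of 11833 and 2455 of 11784 passed there. With the prefix 0, 4 and 0 of the 45 passed, against 0.381%, 6.39% and 0.305% of all tested genes, and 37, 38 and 40 lay below 0. At an unadjusted p under 0.05 the fit with the prefix gave 4 (8.89%), 14 (31.1%) and 8 (17.8%) of the 45, against 7.24%, 21.2% and 9.61%. The Fip200 KO share was about that of all genes.

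The KO cells were also compared with each other in 1 fit of all 12 libraries. In each of the 3 comparisons 0 of the 45 genes, and 0.0% of all 12233 tested genes, passed an adjusted p of at most 0.1 in limma. At an unadjusted p under 0.05 were 1 gene between Atg5 KO and Fip200 KO cells (Tfeb), 5 between Atg7 KO and Fip200 KO cells (Tfeb, Gusb, Galns, Fuca1 and Psap) and 3 between Atg7 KO and Atg5 KO cells (Ctsb, Fuca1 and Atp6v1d), or 2.22%, 11.1% and 6.67% of the 45 against 7.58%, 7.49% and 4.59% of all tested genes. The limma fit on recovered reads also gave 0 in each. The median log2 difference of the 45 genes was -0.0061 for Atg5 KO minus Fip200 KO, -0.19 for Atg7 KO minus Fip200 KO and -0.24 for Atg7 KO minus Atg5 KO cells. Single genes ranged from -0.79 to 0.72, from -0.96 to 0.45 and from -0.76 to 0.36. So the larger counts in Atg5 KO and Atg7 KO cells than in Fip200 KO cells do not show that any of these genes differed between the KO cells, and a p that misses the threshold does not show that they were alike.

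Further genes of the pathway were read from 6 lists, 106 genes of which 99 were in the tables. Lower with an adjusted p of at most 0.1 were 4 of 93 tested after Fip200 KO, 29 of 94 after Atg5 KO and 31 of 92 after Atg7 KO, and higher were 0, 10 and 2. These are 4.3%, 30.9% and 33.7% lower, against 1.69%, 18.7% and 13.7% of all tested genes, and 10.6% and 2.17% higher after Atg5 KO and Atg7 KO, against 22.9% and 11.3%. Among them Tfec and Atp6v0e2 passed the filter on low values through KO libraries alone and Igf2r after Atg7 KO through control alone. Without these, 30 were lower after Atg7 KO and 8 and 1 higher after Atg5 KO and Atg7 KO. Igf2r is still counted among the lower genes after Fip200 KO and Atg5 KO. The median log2 fold change of the tested genes was -0.26, -0.20 and -0.39. Gpnmb and Dnase2a were past both thresholds in all 3 KO cells, as was Igf2r. In each KO fewer than 3 KO libraries reached 0.5 RPKM for Igf2r, so it was tested only because it was high in control. Igf2r is the large receptor that sorts hydrolases with mannose 6-phosphate to lysosomes. It was at 10.7, 28.3 and 19.2 RPKM in control, 0.695, 0.501 and 0.0459 after Fip200 KO, 0.882, 0.739 and 0.218 after Atg5 KO and 0.13, 0.086 and 0.285 after Atg7 KO. Its log2 fold change was -4.42 ± 0.44 after Fip200 KO and -4.12 ± 0.39 after Atg5 KO, and its values in all 3 KO cells are a description. It stood at under 1 RPKM in every KO library and over 10 RPKM in every control library. The other sorting genes gave 0 lower in each KO, against 1.69%, 18.7% and 13.7% of all tested genes. Higher were 0, 1 and 1 of the 8, against 0.356%, 22.9% and 11.3%.

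Gpnmb, a glycoprotein whose gene is bound by MiT factors, was at 60.5, 115 and 143 RPKM in control, 13.6, 3.67 and 20.8 after Fip200 KO, 33.3, 34.2 and 27.1 after Atg5 KO and 33.9, 8.46 and 37.5 after Atg7 KO. Every KO library lay below the control libraries. It had a log2 fold change of -3.22 ± 0.61 (adjusted p = 0.0826) after Fip200 KO, -1.65 ± 0.31 (adjusted p = 0.0115) after Atg5 KO and -2.14 ± 0.58 (adjusted p = 0.0533) after Atg7 KO. Dnase2a, the acid DNase, was at 18.3, 21.7 and 26.8 RPKM in control, 7.19, 8.46 and 6.63 after Fip200 KO, 10.1, 11.4 and 8.31 after Atg5 KO and 6.52, 8.01 and 8.05 after Atg7 KO, again with no overlap. Its log2 fold change was -1.51 ± 0.22 (adjusted p = 0.0395) after Fip200 KO, -1.12 ± 0.18 (adjusted p = 0.00834) after Atg5 KO and -1.49 ± 0.19 (adjusted p = 0.00974) after Atg7 KO. Of the 29 other enzymes and cofactors listed, 27 were tested. Lower were 1 (3.7%), 11 (40.7%) and 13 (48.1%), against 1.69%, 18.7% and 13.7% of all tested genes. Higher were 0, 2 (7.41%) and 0, against 0.356%, 22.9% and 11.3%. Acp5, an acid phosphatase, had the smallest p of that list and had a log2 fold change of -1.62 ± 0.46 (adjusted p = 0.168) after Fip200 KO, -1.92 ± 0.48 (adjusted p = 0.0275) after Atg5 KO and -3.02 ± 0.27 (adjusted p = 0.00618) after Atg7 KO.

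Of the 25 other membrane proteins, 1, 8 and 8 were lower, against 1.69%, 18.7% and 13.7% of all tested genes. Higher were 0, 2 and 0, against 0.356%, 22.9% and 11.3%. Tmem192, a membrane protein used to pull down lysosomes, had the smallest p with -1.07 ± 0.18 (adjusted p = 0.064) after Fip200 KO, -0.98 ± 0.11 (adjusted p = 0.00383) after Atg5 KO and -1.26 ± 0.19 (adjusted p = 0.0134) after Atg7 KO. Of the 16 other MiT factors and regulators, 14, 15 and 14 were tested. Lower were 1 (7.14%), 5 (33.3%) and 4 (28.6%), against 1.69%, 18.7% and 13.7% of all tested genes. Higher were 0, 2 (13.3%) and 1 (7.14%), against 0.356%, 22.9% and 11.3%, but these counts include Tfec. Without it, 1 of 14 was higher after Atg5 KO and 0 of 13 after Atg7 KO. Tfec, a MiT factor with the smallest p of that list, was at 0.296, 0.0951 and 0.0853 RPKM in control, 12.4, 0.586 and 3.18 after Fip200 KO, 0.873, 1.26 and 4.06 after Atg5 KO and 9.47, 1.85 and 4.13 after Atg7 KO. Its KO libraries all lay above control, but as no control library reached 0.5 RPKM it was tested only because it was high in KO cells, and its values are a description. The 10 autophagy genes listed as TFEB targets held 0, 3 and 3 lower (30.0% after Atg5 KO and after Atg7 KO, against 18.7% and 13.7%). In that list 0, 1 (10.0%) and 0 were higher, against 0.356%, 22.9% and 11.3%. Uvrag, a subunit of a PI3-kinase complex, had the smallest p with 0.15 ± 0.18 (adjusted p = 0.712) after Fip200 KO, 0.53 ± 0.11 (adjusted p = 0.0174) after Atg5 KO and 0.35 ± 0.18 (adjusted p = 0.209) after Atg7 KO. Of the 10 other V-ATPase subunits, 8, 8 and 7 were tested. Lower were 0, 1 (12.5%) and 2 (28.6%), against 1.69%, 18.7% and 13.7% of all tested genes. Higher were 0, 2 (25.0%) and 0, against 0.356%, 22.9% and 11.3%, but the 2 include Atp6v0e2. Without it, 1 of 7 was lower and 1 higher after Atg5 KO. Atp6v0e2, with the smallest p of that list, was at 0.288, 0.138 and 0.0276 RPKM in control, 1.68, 0.677 and 0.795 after Fip200 KO, 3.30, 2.99 and 2.62 after Atg5 KO and 1.07, 0.209 and 1.90 after Atg7 KO, and these too are a description, since no control library reached 0.5 RPKM.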

How the data were processed

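Total RNA of cultured 562 cells was sequenced with a directional kit. For each KO the authors deposited a table that also holds the same 3 control libraries. The authors mapped trimmed reads with TopHat2, counted them per transcript in Bioconductor and tested them with edgeR. The genome build, annotation, versions and use of strand are not given in the sources used here. The authors deposited RPKM values per library, a unit read from the values and not named in the tables, scaled to gene length and library total. The deposited fold changes, group means and p-values were not used.

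Whole reads were recovered from the RPKM ratios for 14831 of 14851 genes (tolerance 0.001), and 20 genes had no reads. Libraries held 17264989 to 23627944 reads, which sets the counting error only. Testing took genes that reached 0.5 RPKM in 3 or more compared libraries, and was done on log2(RPKM + 0.5) with limma 3.58.1 in R 4.3.3, moderated along the trend of level, with Benjamini-Hochberg adjustment over all tested genes. Fold changes on this scale understate those of low genes. The thresholds were 0.1 for the adjusted p and, where stated, 1 for the size of the log2 fold change. KO cells were compared with each other in 1 fit of all 12 libraries. Genes given with the value of every library are Tfeb, Tfe3, those past both thresholds in any KO, the smallest p of each role group and the 3 highest and 3 lowest control means. Alternatives were other pseudocounts, no filter, median-of-ratios scaling, 1 fit of all libraries, limma-voom on the recovered reads, the prefix of library names as a further term, the replicate number as a block, and leaving out each library. Same-numbered libraries did not deviate together (correlations between -0.50 and 0.25), so the number was not used as a pairing. Within groups no libraries were duplicates, as replicates differed by a chi-square per degree of freedom of 8.19 or more. The genes, lists and tests were chosen with earlier results of these data known.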

Additional observations from a re-analysis of the deposited data

How the results depend on the processing

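The number of the 45 genes with an adjusted p of at most 0.1 was 3, 22 and 24 in the Fip200, Atg5 and Atg7 knockouts. In Fip200 KO cells it was 11 in 1 fit of all 12 libraries, 1 with no filter, 0 with a term for the library-name prefix, 0 with the replicate block, and 0 to 3 when each library was left out. In Atg5 KO cells it was 12 in 1 fit of all 12 libraries and 4 with the prefix as a term. In Atg7 KO cells it was 0 with the prefix as a term and 14 to 26 when each library was left out. Between Atg7 KO and Fip200 KO cells 0 genes passed, and 0 to 3 when each library was left out, the 3 (6.67%) being found without Fip200 KO replicate 3, where 6.38% of all tested genes passed. Of the 42 alternatives for the counts against control 29 stayed within 1.5 times the count given, 6 of 14 for Fip200 KO cells, and of the 42 between KO cells 41 stayed at 0. With the replicate block, 21 genes passed after Atg5 KO and 20 after Atg7 KO.

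Of the 34 results of named genes with an adjusted p of at most 0.1, all 34 kept their direction under every alternative, while 30 of them no longer passed with the prefix as a term and 8 in 1 fit of all 12 libraries. Naglu in Fip200 KO cells (-0.11) ran from -0.98 without replicate 1 of the KO to 0.55 without replicate 3, and was also above 0 without control replicate 1 (0.038) and without replicate 2 of the KO (0.10). Sgsh in Fip200 KO cells (0.16) ran from -0.39 without replicate 1 to 0.49 without replicate 2 of the KO, and in Atg5 KO cells (-0.06) from -0.18 without control replicate 2 to 0.017 without control replicate 3. The prefix term was added in the fit of all 12 libraries, so its counts of 0, 4 and 0 stand against 11, 12 and 19 there rather than 3, 22 and 24. That term rests on few libraries. Control replicate 1 is the only control library with FY, and Atg5 KO replicate 3 the only Yang library outside Atg7 KO cells. With the term the median log2 fold change was -0.38, -0.39 and -0.64, beside -0.31, -0.38 and -0.57 without it. The part of the prefix in the differences from control was not tested. With 3 libraries a group and 1 tumor line, differences between clones or cultures and the effect of a KO cannot be told apart. Depth sets the counting error, and the lowest library of Tfeb held 50 reads.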
